A study of Homo sapiens with 22 samples.

Results

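The FOXA2 cistrome, meaning the set of places on chromatin where FOXA2 was found by ChIP-seq, was compared between PC3 and NCI-H660 cells. PC3 is a human prostate cancer line from a bone metastasis that lacks androgen receptor activity, and NCI-H660 is a human prostate cancer line with neuroendocrine features. Both lines received vehicle for 4 h, and FOXA2 was precipitated with an antibody labelled as anti-FOXA2 from Millipore. PC3 was grown in RPMI-1640 with 10% serum and NCI-H660 in the same base medium with 5% serum, β-estradiol, hydrocortisone and an insulin, transferrin and selenium supplement, so that line and medium cannot be told apart. A region that overlapped a region of the other line by at least 1 bp was called shared, and the rest were called PC3-only or NCI-H660-only. Of 35924 FOXA2 regions in the lists of both lines, 21368 were PC3-only, 9208 were NCI-H660-only, and 2670 PC3 regions and 2678 NCI-H660 regions were shared. These are 2 of the 22 lists in the series. Each line gave 1 list, so no test between the lines was possible. The intervals below are Wilson 95% intervals that cover counting error only, and regions of 1 list are not replicates. Sequencing depth is unknown, so depth and binding cannot be told apart as sources of the longer PC3 list.

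FOXA2 is a forkhead transcription factor of the endoderm. Forkhead proteins of the FOXA family can bind their sites in closed chromatin and are therefore called pioneer factors. FOXA1 fills this role with the androgen receptor in luminal prostate cells, and FOXA2 is known in neuroendocrine prostate tumours. The core of a forkhead site reads TGTTTAC or TGTTTGC. AP-1, the dimer of JUN and FOS proteins, binds TGACTCA, and basic helix-loop-helix factors bind E-boxes such as CAGCTG.

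The lines were first checked at the promoters of marker genes, using ATAC-seq regions, which mark accessible chromatin. Of 9 neuroendocrine markers, 9 had an accessible promoter in NCI-H660 and 7 in PC3, where CHGA and PCSK1 had none. Of 8 basal and mesenchymal markers, 8 were accessible in both lines. Of 6 luminal and androgen receptor markers, 5 were accessible in PC3 and 4 in NCI-H660; KLK3, the gene of prostate-specific antigen, had no accessible promoter in either line. Accessible promoters were common, with 15083 of 19444 protein-coding genes in PC3 and 14538 in NCI-H660, so this check separates the lines weakly.

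The strongest regions of each class show the letters that the comparison turns on. For the PC3-only and shared classes the 3 highest-scoring regions, and for NCI-H660-only the second and the third of them, that held a forkhead or AP-1 core within 100 bp of their centre are printed, leaving out 1 chromosome whose sequence is not shown and places enriched in at least 17 of the 22 lists, cut to 20 bp on either side of the outermost core, or to the window's edge. All are on the plus strand of hg19 (read from GRCh37). Capitals mark the forkhead cores and the AP-1 core named above, read on either strand.
PC3-only, intergenic beside NRP1, chr10:33445215-33445261: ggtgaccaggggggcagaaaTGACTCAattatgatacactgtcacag
PC3-only, intergenic beside KAT6B, chr10:76559673-76559719: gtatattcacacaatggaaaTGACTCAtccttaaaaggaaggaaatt
PC3-only, intergenic beside NACA2, chr17:59646066-59646112: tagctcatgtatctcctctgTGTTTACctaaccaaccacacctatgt
shared, NRP1 promoter, chr10:33553324-33553370: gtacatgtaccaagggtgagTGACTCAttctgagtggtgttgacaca
shared, FIP1L1 intron, chr4:54322071-54322163: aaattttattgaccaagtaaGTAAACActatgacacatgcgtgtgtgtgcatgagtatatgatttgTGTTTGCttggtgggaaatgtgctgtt
shared, intergenic with RPS24 as nearest gene, chr10:80218886-80218932: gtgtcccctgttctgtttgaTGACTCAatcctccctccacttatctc
NCI-H660-only, intergenic beside NKX2-2, chr20:21499228-21499282: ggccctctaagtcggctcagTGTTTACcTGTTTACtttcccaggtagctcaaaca
NCI-H660-only, FNDC3B intron, chr3:171931888-171932005: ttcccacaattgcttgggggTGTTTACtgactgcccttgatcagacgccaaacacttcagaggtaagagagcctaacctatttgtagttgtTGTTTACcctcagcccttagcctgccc
The printed NCI-H660-only windows held forkhead cores and no TGACTCA, and the window beside NKX2-2 held 2 forkhead cores 1 bp apart. Among the PC3-only windows, 2 held TGACTCA with no forkhead core.

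Most regions of either line were not found in the other. In PC3, 88.9% of regions (88.5 to 89.3%) were PC3-only and 11.1% were shared. In NCI-H660, 77.5% (76.7 to 78.2%) were NCI-H660-only and 22.5% were shared. When PC3 was cut to its 11886 highest-scoring regions, as many as NCI-H660 has, 15.2% of PC3 regions and 15.3% of NCI-H660 regions were shared. The centres of the 2682 overlapping pairs lay a median of 24.5 bp apart and 87.5% lay within 100 bp. The overlap rule itself keeps centres near each other, as median region widths were 323 bp in PC3 and 278 bp in NCI-H660. Few line-only regions were near misses, as 232 PC3-only regions (1.09%) and 203 NCI-H660-only regions (2.20%) lay within 1 kb of a region of the other line. The median gap to the other line's nearest region was 92231 bp for PC3-only and 48927 bp for NCI-H660-only regions.

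The class of line-only regions was then followed into FOXA2 lists that had not been used to define it. Of the PC3-only regions, 94.8% and 92.8% were found in the other FOXA2 ChIPs of vehicle-treated PC3, for which the antibody is not labelled, and 32.2% and 25.2% in PC3 treated with ORY-1001 and with C12. Only a small share of them was found in the other line, 1.98% (1.81 to 2.18%) in NCI-H660 treated with ORY-1001. ORY-1001 and C12 are inhibitors of the histone demethylase LSD1. Of the NCI-H660-only regions, 64.2% (63.2 to 65.2%) were found in NCI-H660 under ORY-1001, 2.74% in PC3 under ORY-1001 and 1.02% in PC3 under C12. The other FOXA2 ChIPs of PC3 hold 77822 and 62714 regions, and these long lists contained 19.1% and 15.1% of the NCI-H660-only regions. Counting every PC3 FOXA2 list, 21.9% of the NCI-H660-only regions were called somewhere in PC3.

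Regions with high scores were shared more often, although the strongest regions of each line also included line-only ones. The score is the whole number in the authors' peak list, read here as 10 times the −log10 of the q-value. In PC3 the median score was 143 (quartiles 83 and 271) for PC3-only and 246 (121 and 518) for shared regions. In NCI-H660 it was 125 (71 and 224) for NCI-H660-only and 176 (94.3 and 342) for shared regions. From the lowest to the highest score decile, the shared share went from 6.07% to 26.7% in PC3 and from 12.3% to 40.5% in NCI-H660. Recurrent places, which were enriched in at least 17 of the 22 lists, held 391 of the shared PC3 regions (14.6%) and 12 of the PC3-only regions. Without them the highest decile was shared in 21.7% in PC3 and 30.9% in NCI-H660. Among the 100 highest-scoring regions outside recurrent places, 60 were PC3-only in PC3 and 59 were NCI-H660-only in NCI-H660. Over the overlapping pairs the scores of the lines had a Spearman rho of 0.476, a description across regions within 2 libraries. Of the pairs, 277 were in the highest decile of both lists, whereas 130 were in the highest decile of PC3 and the lower part (under the 50th percentile) of NCI-H660, and 46 the other way round.

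**Figure D1:**
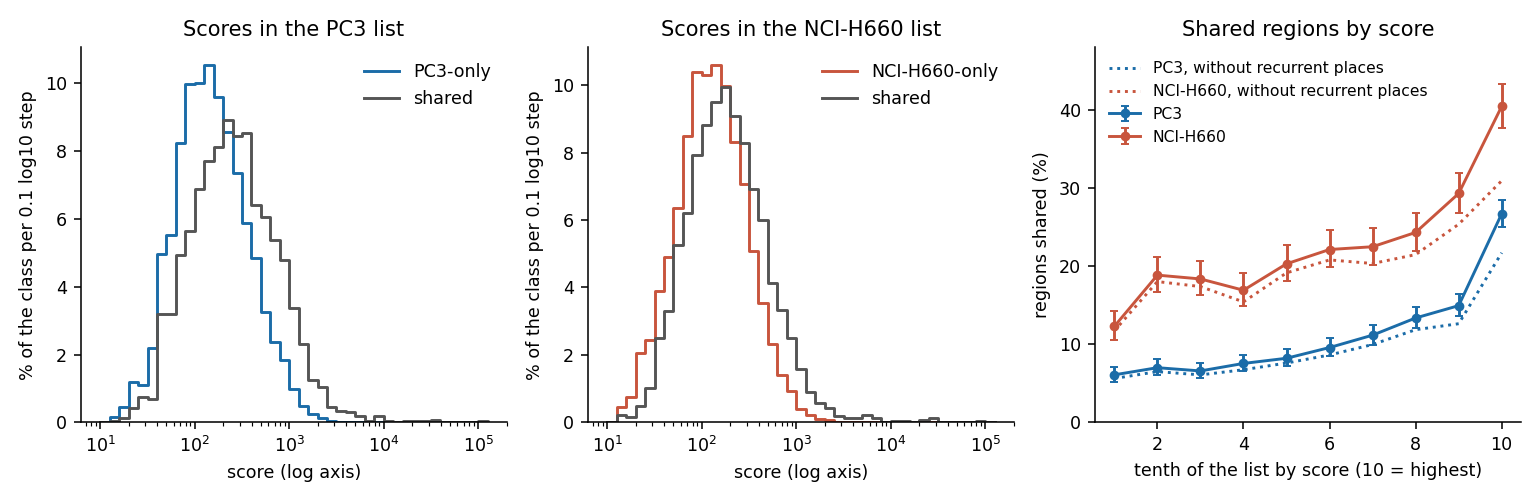
Scores of the FOXA2 regions. The left and middle panels give the percentage of each class in steps of 0.1 on a log10 score axis, in PC3 and in NCI-H660, and the right panel gives the percentage of regions shared by score decile, with 95% Wilson intervals as bars and the values without recurrent places as dotted lines. Shared regions sit at higher scores in both lists, and the shared percentage in the highest decile is 26.7% in PC3 and 40.5% in NCI-H660.

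The regions with the highest scores named different genes in each line. The highest PC3-only region, chr10:33444862-33445491, lay 20928 bp beyond the body of NRP1, which codes for neuropilin-1, a co-receptor for semaphorins and VEGF. Its score was 12604 in PC3 vehicle, 2637 under ORY-1001, 2624 under C12, and 3412 and 3460 in the other PC3 ChIPs, and it had no region in either NCI-H660 list. It was accessible in PC3 and not in NCI-H660. The next PC3-only regions lay 24666 bp from KAT6B, a histone acetyltransferase gene (score 4881), 21418 bp from NACA2 (4245), and 48986 bp from PTHLH, which codes for parathyroid hormone-related protein (4139). The fifth was in an intron of the potassium channel gene KCNMA1 (3302). These 5 regions were found in all 5 PC3 lists and in neither NCI-H660 list, and all 5 overlapped JUN in PC3.

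The highest NCI-H660-only region was in an intron of ACVR1C, which codes for an activin receptor of type I. Its score was 3453 under vehicle and 3196 under ORY-1001 in NCI-H660, with no region in any of the 5 PC3 lists. The region chr20:21499051-21499402, 4525 bp upstream of NKX2-2, a homeobox gene of endocrine and neural progenitors, had scores of 2260 and 2888 in the NCI-H660 lists and likewise none in PC3. The others of the highest 5 lay on chromosome 8, at 554118 bp from RIPK2 (3327), in an intron of CLVS1 (2830) and in an intron of DEPTOR, an inhibitor of mTOR (2312). The region near RIPK2 was also listed in the other PC3 ChIPs, at scores of 82 and 48. Of these 5 NCI-H660-only regions, all were accessible in NCI-H660 and none in PC3, and 1, in CLVS1, overlapped JUN.

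The shared regions with the highest PC3 scores had lower scores in NCI-H660, as their choice by the PC3 score favours. The region over the NRP1 promoter, chr10:33553102-33553621, had a score of 8091 in PC3 vehicle and 249 in NCI-H660 vehicle, and was not listed in NCI-H660 under ORY-1001. In an intron of KAT6B the scores were 5509 and 965, in RAD51B, a gene of homologous recombination repair, 4036 and 74, near NID2, which codes for a basement membrane protein, 3624 and 160, and in FIP1L1, a subunit of the polyadenylation machinery, 3502 and 902. From the side of NCI-H660 the highest shared region lay 31888 bp from CIBAR1, with a score of 4627 in NCI-H660 and 378 in PC3 vehicle. The regions that followed were nearest to XKR9 (2945 in NCI-H660 and 461 in PC3) and FAM83B (2225 and 1421), and in introns of SCIMP (2053 and 847) and DDX60L (1959 and 957). The DDX60L region was in no PC3 FOXA2 list other than vehicle and was not accessible in PC3. Scores grow with depth, so scores of the lines set side by side give no order of binding strength between them. By rank within each vehicle list, the NRP1 promoter region was at 12 in PC3 and 2935 in NCI-H660. The FIP1L1 region was at 35 and 252.

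Intron and intergenic shares and the median distance to a start were close between the line-only classes. The promoter share was higher in NCI-H660-only regions in the main setting, but the order depended on the setting. Promoters, taken as 1 kb on either side of a protein-coding transcript start, held 3.51% of PC3-only regions (3.27 to 3.77%) and 4.35% of NCI-H660-only regions (3.96 to 4.79%). With scores of at least 100 the shares were 3.54% and 3.73%. For line-only regions in no FOXA2 list of the other line they were 3.40% and 3.25%. Introns held 42.6% and 42.4%, intergenic sequence 50.03% and 50.2%, coding exons 2.13% and 1.87%, and untranslated exons 1.69% and 1.17%. Shared regions were in promoters in 7.57% (6.62 to 8.63%) by the PC3 list. These promoter shares lay under those of accessible regions, of which 10.2% in PC3 and 16.5% in NCI-H660 were in promoters.
The median distance from a region's centre to the nearest start was 56571 bp for PC3-only (quartiles 16441 and 197536 bp) and 56495 bp for NCI-H660-only regions (17349 and 176258 bp). For shared regions it was 62065 bp, and for accessible regions 33330 bp in PC3 and 30112 bp in NCI-H660. Regions farther than 500 kb from a start made up 10.6% of PC3-only and 7.76% of NCI-H660-only regions.

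**Figure D2:**
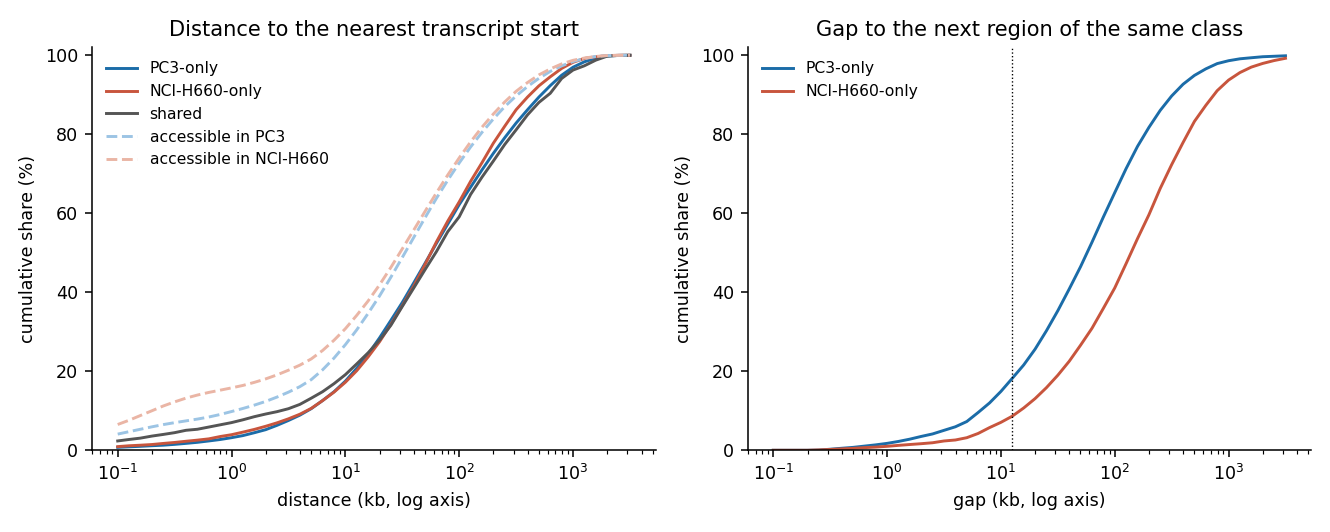
Cumulative percentage of regions by distance to the nearest transcript start (left) and by gap to the next region of the same class (right), in kb on log axes. The line-only curves on the left run together up to about 100 kb, with medians of 56571 bp and 56495 bp. They lie to the right of accessible regions (dashed). On the right the gaps of NCI-H660-only regions are wider than those of PC3-only regions, which are more numerous. The dotted line marks the gap limit used for clusters.

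Accessibility, JUN and histone marks went with the line in which FOXA2 was found. Accessible chromatin of PC3 covered 89.4% of PC3-only and 19.6% of NCI-H660-only regions, and that of NCI-H660 covered 14.8% and 92.8%. JUN was profiled in cells with a control siRNA. JUN in PC3 covered 43.2% of PC3-only and 1.65% of NCI-H660-only regions, and JUN in NCI-H660 covered 3.04% and 32.0%. H3K27ac, a mark of active enhancers and promoters, was profiled in PC3 and covered 57.5% of PC3-only and 9.47% of NCI-H660-only regions. H3K4me2, found at enhancers and promoters, was profiled in NCI-H660 and covered 60.8% of NCI-H660-only and 7.28% of PC3-only regions.
Line-only regions in promoters were more often accessible in the other line as well, 47.2% of the 750 PC3-only ones in NCI-H660 and 45.1% of the 401 NCI-H660-only ones in PC3. In their own line 90.5% and 96.5% were accessible. JUN of the own line covered 37.1% and 34.9% of them, and JUN of the other line 10.9% and 2.99%. FOSL1, a FOS-family partner of JUN, was profiled in PC3 and covered 4.17% of PC3-only, 31.8% of shared and 1.22% of NCI-H660-only regions. Outside recurrent places the shared value was 20.5% (18.9 to 22.2%).

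The motif letters at region centres were then counted. The forkhead core (TGTTTAC or TGTTTGC, on either strand) was present within 100 bp of the centre in 34.3% of PC3-only regions (33.6 to 34.9%), 43.4% of shared regions (41.5 to 45.3%) and 44.2% of NCI-H660-only regions (43.1 to 45.2%). Windows of the same length taken 2 kb to either side held it in 6.47% for NCI-H660-only regions and in 6.84% for shared regions of the PC3 list, and windows tiling the genome in 6.44%. The core was more frequent in strong regions: in the highest score decile it was in 47.0% of PC3-only and 62.3% of NCI-H660-only regions, and in the lowest in 19.9% and 18.5%.
TGACTCA was found in 28.1% of PC3-only regions (27.5 to 28.7%), 12.7% of shared regions (11.5 to 14.0%) and 4.83% of NCI-H660-only regions (4.41 to 5.29%). Nearby windows held it in 3.03% for PC3-only and 3.28% for NCI-H660-only regions. The accessible regions of the lines differed in the same direction, with 16.9% in PC3 and 5.38% in NCI-H660, so NCI-H660-only FOXA2 regions held the letters no more often than NCI-H660 accessible regions did. In PC3-only regions with JUN the share was 39.5% and without JUN 19.4%. In NCI-H660-only regions with JUN it was 7.85% (6.93 to 8.87%), although JUN covered 32.0% of that class. The forkhead core went the other way, being present in 27.7% of PC3-only regions with JUN and 39.2% without, and in 39.7% and 46.2% of NCI-H660-only regions.

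The E-box CAGCTG was present in 15.5% of NCI-H660-only regions (14.8 to 16.2%), against 7.28% of nearby windows, and in 7.33% of PC3-only regions (6.99 to 7.69%), against 6.30% nearby. Accessible regions held it in 15.6% in NCI-H660 and 12.8% in PC3. The E-box CAGATG did not separate the classes to the same extent, at 15.1% and 14.4%. AACAAT, a core of SOX sites, was found in 4488 of 21368 PC3-only regions and 1417 of 9208 (15.4%) NCI-H660-only regions, and CATTCC, a core of TEAD sites, in 14.0% and 9.76%. The GATA core AGATAA was at 14.5% and 13.3%, under the nearby windows in both. These are exact letters on both strands, so variants of a site are not counted and no match says nothing of the factor.
Base composition moved with these shares. The median GC content of these windows was 37.3% in PC3-only, 41.3% in shared and 43.3% in NCI-H660-only regions. Nearby windows had mean GC contents of 39.8% and 41.3% for the line-only classes, whose own means were 38.6% and 44.7%. The part of GC content in the motif shares was not tested.

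**Figure D3:**
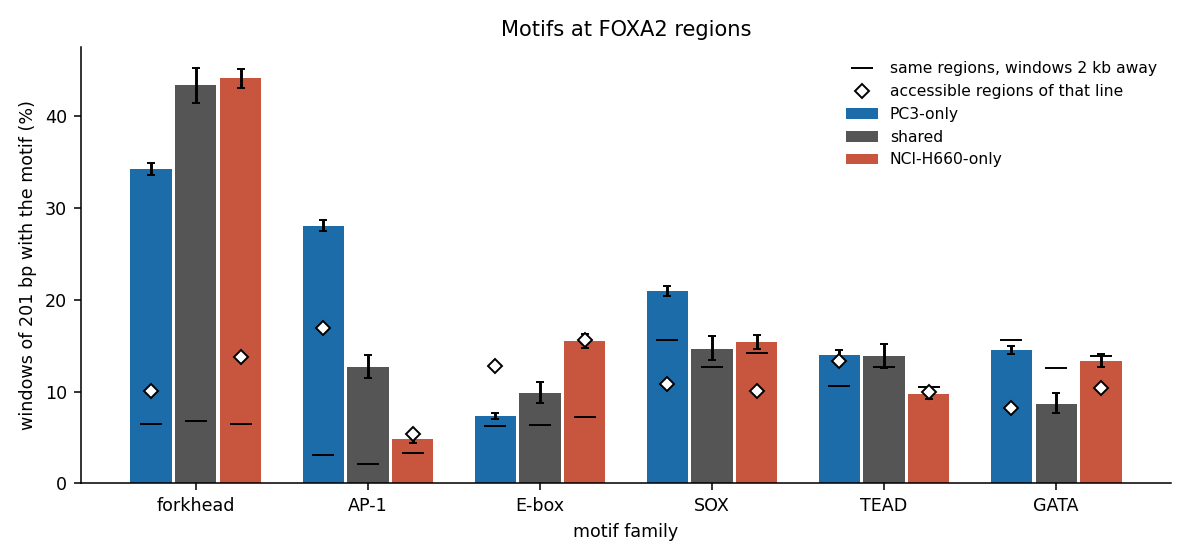
Percentage of windows reaching 100 bp to either side of region centres that hold the core letters of 6 motif families, by class, with 95% Wilson intervals as error bars; the E-box bars stand for CAGCTG. Horizontal ticks give windows 2 kb away from the same regions and diamonds the accessible regions of the line. The AP-1 bar is at 28.1% for PC3-only and 4.83% for NCI-H660-only regions, and the E-box bar at 7.33% and 15.5%.

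Line-only regions in PC3 were closer together, but they were also more numerous, 21368 against 9208. The part of list length in the gaps was not tested. Runs of at least 3 regions joined over short gaps, called clusters here (the gap limit is given with the processing), held 2117 PC3-only regions (9.91%, 9.51 to 10.3%) in 630 clusters and 254 NCI-H660-only regions (2.76%, 2.44 to 3.11%) in 79 clusters. Median gaps between neighbours were 57234 bp and 140298 bp. With lists of equal length the shares were 3.91% and 3.21%.
The largest PC3-only clusters held 7 regions each. They covered MRPS10 and TRERF1 (chr6:42165807-42194892, median score 240), NRP1 (chr10:33595695-33641443, 196), a stretch 71539 bp from GALNT15 (chr3:16090238-16144647, 110) and CEP192 (chr18:12991794-13043409, highest score 241). All 7 regions of each of these 4 clusters were accessible in PC3, and 1 or 2 of them in NCI-H660. Clusters of 6 lay at MCCC1 and LAMP3, ANK3, FILIP1L, MCTP1, at more than 1 Mb from CADM2 (1047368 bp) and at 310816 bp from ST3GAL1.
Among the NCI-H660-only clusters, the first by size held 8 regions and lay on chromosome Y (chrY:13800928-13833615), followed by 5 on chr10:39120341-39150052 and 5 on chrY:13846320-13870059. They lay 815969, 383520 and 779525 bp from a protein-coding gene, and their regions overlapped a median of 7, 8 and 9 of the 22 lists, against a median of 4 for all NCI-H660-only regions. The spans of these clusters also held 2, 0 and 1 FOXA2 regions of PC3, so the chromosome Y stretches held listed regions in both lines. Whether the regions listed in these places reflect binding was not tested. The next cluster, with 5 regions and 144497 bp from ZMIZ1, a coactivator gene, was at chr10:80649114-80684225. Clusters of 4 followed near TRHR, the receptor gene for thyrotropin-releasing hormone (133205 bp), PDE4DIP (within the gene), RPUSD4, CCNA1 and RTN4RL2.
Near the gene of FOXA2 itself, NCI-H660 had a cluster of 4 regions in 14.4 kb (chr20:22430161-22444602), 117033 bp from the FOXA2 gene, with a highest score of 649, and no region within 50 kb of the gene in either of its lists. PC3 had 4 PC3-only regions within 50 kb, the highest, at chr20:22559157-22559684, scoring 1099. Over the PC3 lists the count within 50 kb of FOXA2 was 4 under vehicle, 2 under ORY-1001, 1 under C12, and 7 and 6 in the other ChIPs.

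Genes were then ranked by their line-only regions. Within 50 kb of the gene body, 9707 of 19444 protein-coding genes had a PC3-only region and 6094 an NCI-H660-only region. The 3602 genes with both made up 37.1% of the former and 59.1% of the latter, where 31.3% of all genes had an NCI-H660-only and 49.9% a PC3-only region. At least 3 of each were found at 366 genes (1.88%). Genes with at least 3 PC3-only regions and no NCI-H660-only region numbered 1384 (7.12% of all genes), and genes with at least 3 NCI-H660-only regions and no PC3-only region numbered 189 (0.972%). With lists of equal length these numbers were 409 and 364. A long gene collects more regions, and the genes so called had median lengths of 70.8 kb and 98.7 kb against 27.2 kb for all genes.

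The genes with the most PC3-only regions within 50 kb of the body were NAALADL2 (36), RAD51B (33), ZFPM2 (33), LPP (32), PRKG1 (31), KCNMA1 (28), MACROD2 (27), CTNNA3 (25), PARD3 (25) and LSAMP (25). All are long genes, the shortest being PARD3 with 706 kb. Of these, PRKG1, which codes for a cGMP-dependent protein kinase, had no NCI-H660 region. Its counts were 31 in PC3 vehicle, 49 under ORY-1001, 23 under C12, 87 and 67 in the other PC3 ChIPs, and 0 in both NCI-H660 lists. Accessible regions at PRKG1 numbered 244 in PC3 and 8 in NCI-H660. LPP, a focal adhesion protein gene, had 33, 14, 13, 71 and 58 regions in the PC3 lists in the same order and 8 and 6 in the NCI-H660 lists.
Assigned to the nearest gene, PC3-only regions were most numerous for ADGRL3 and CSMD3 (47 each), CADM2 (46), CTNNA3 and TRPS1 (43 each), PCDH9 (42), LRRC4C (40), NAALADL2 and LRFN5 (39 each) and HAS2 (38). HAS2, a hyaluronan synthase gene of 29.3 kb, had 7 regions of PC3 vehicle within 50 kb, so its other regions lay farther away.
Around the gene start, a window that does not depend on gene length, NRP1 led with 10 PC3-only regions within 50 kb, followed by ATXN1 (9), GUCA1A, GUCA1B and the ceruloplasmin gene CP (8 each), and KAT6B, FUT8, SPTSSB, MRPS10 and MCCC1 (7 each). GUCA1A, GUCA1B and MRPS10 are neighbours on chromosome 6, so their counts are not independent. ATXN1, which codes for the polyglutamine protein ataxin-1, had 20 regions within 50 kb of the body in PC3 vehicle, 9 and 4 under ORY-1001 and C12, 39 and 36 in the other ChIPs, and none in the NCI-H660 lists, with 80 accessible regions in PC3 and 5 in NCI-H660. Counts for NRP1 were 22, 16, 13, 35 and 35 in PC3 and 3 and 1 in NCI-H660.

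NCI-H660-only regions within 50 kb of the body were most numerous at LRMDA (19), MACROD2 (16), NRXN3, DLG2, TRAPPC9 and AUTS2 (14 each), KAZN, NAALADL2 and ANKS1B (13 each) and ASTN2 (12). Several were also rich in PC3-only regions, LRMDA with 20, MACROD2 with 27 and NAALADL2 with 36. AUTS2, a neurodevelopmental gene, and ASTN2, which codes for astrotactin-2 of neuronal migration, had no PC3-only region. At AUTS2 the counts were 14 and 9 in the NCI-H660 vehicle and ORY-1001 lists and 0 in all 5 PC3 lists, and accessible regions numbered 83 in NCI-H660 and 32 in PC3. At ASTN2 they were 13 and 11 in NCI-H660, and 1, 1, 1, 0 and 0 in PC3. NRXN3, which codes for the presynaptic protein neurexin-3, had 14 and 13 in NCI-H660 but also between 2 and 36 in the PC3 lists.
By nearest gene the order was CELF4 (22), LRMDA (20), AUTS2 (18), TENM4 and CSMD3 (17 each), and RALYL, GPC5, MACROD2, LSAMP and the chromosome Y gene USP9Y (16 each). CELF4, an RNA-binding protein gene of neurons, had 2 NCI-H660 regions within 50 kb, and USP9Y had none. All of these genes but AUTS2 were also nearest to PC3-only regions, from 12 at CELF4 and at USP9Y to 47 at CSMD3.
Around the gene start no NCI-H660-only count passed 5. CABLES1, FRMPD2, RNFT2, SPRING1, L3MBTL4 and KDR, the gene of a VEGF receptor, had 5 each, and LRRC52, MAGI1, TOX3 and RAB37 had 4 each. RNFT2 and SPRING1 are neighbours, so their counts are not independent. Within 50 kb of the body, TOX3, which codes for an HMG-box protein, had 7 and 4 regions in the NCI-H660 lists and none in the 5 PC3 lists, with 18 accessible regions in NCI-H660 and 1 in PC3. FRMPD2, a scaffold protein gene, had 7 and 6 in NCI-H660 and at most 1 in PC3. RAB37, a small GTPase gene of exocytosis, had 4 and 3 in NCI-H660 and 0, 0, 0, 2 and 1 in PC3.

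**Figure D4:**
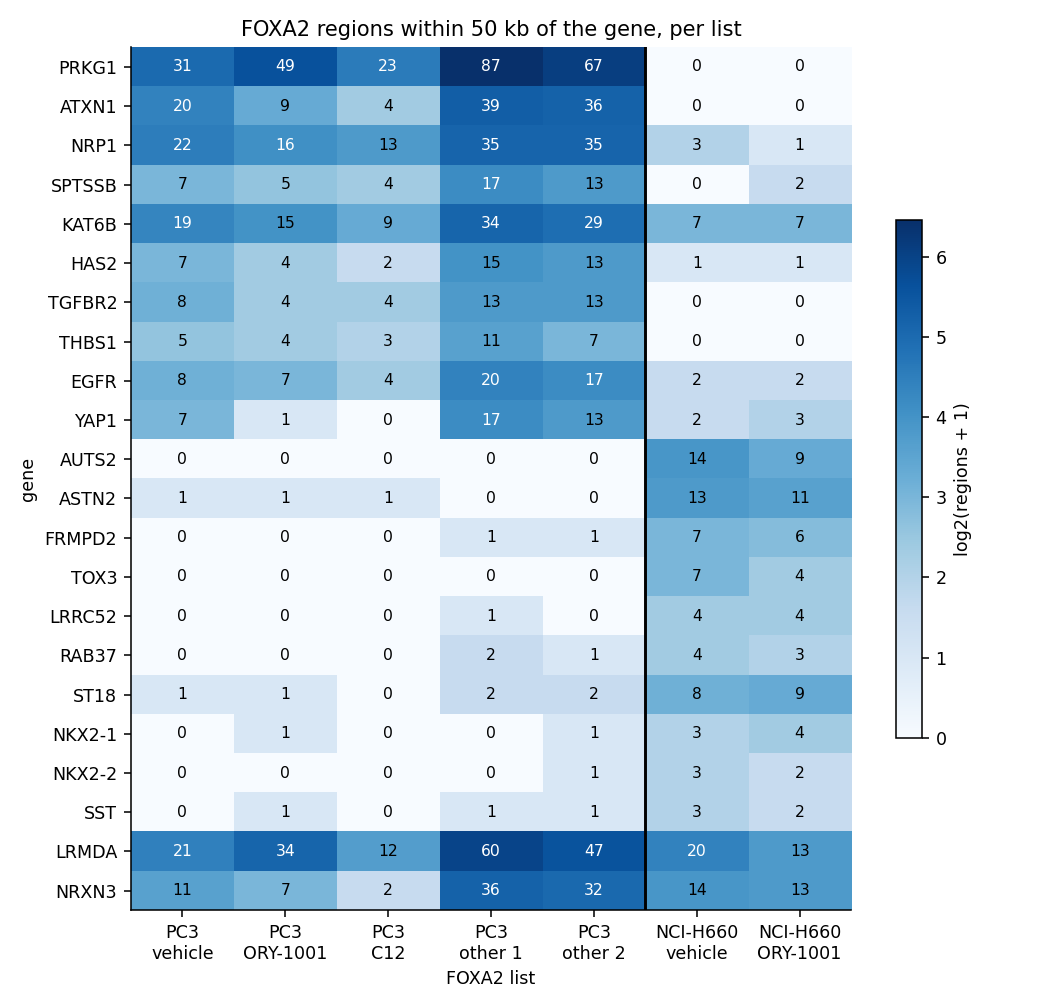
Number of FOXA2 regions within 50 kb of the gene body in each of the 7 FOXA2 lists of PC3 and NCI-H660, for genes named in the text; the colour is log2(regions + 1). Lists differ in length, from 8352 regions (PC3, C12) to 77822 (PC3 other 1). PRKG1, ATXN1, TGFBR2 and THBS1 have no region in either NCI-H660 list, and AUTS2 and TOX3 have none in the 5 PC3 lists.

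Gene lists of the lineages were read against all genes, of which 49.9% had a PC3-only and 31.3% an NCI-H660-only region within 50 kb. Neuroendocrine transcription factors more often had NCI-H660-only regions: 13 of 24 had an NCI-H660-only region and 5 of 24 a PC3-only region. Their median counts were 1 and 0, where both medians over all genes were 0. With lists of equal length the numbers were 13 and 2, against 6500 and 6375 of all genes. Of the 24, 3 had at least 3 NCI-H660-only and no PC3-only regions, beside 0.972% of all genes, and 0 the reverse, beside 7.12%. The genes of this list are short, with a median of 7.73 kb against 27.2 kb for all genes, and the part of length was not tested.
ST18, a zinc finger factor of the MYT1 family, had 7 NCI-H660-only regions, with scores from 30 to 1333 and the highest in an intron at chr8:53167404-53167767. The gene ST18 is 350 kb long, and over the lists its counts were 8 and 9 in NCI-H660 and 1, 1, 0, 2 and 2 in PC3. NKX2-1, a homeobox factor of lung and thyroid, had 3 NCI-H660-only regions, with scores of 352, 98 and 92, the last in its promoter at chr14:36988738-36989067. NKX2-2 had 3 with scores of 2260, 267 and 108. The promoters of NKX2-1 and ST18 were accessible in NCI-H660 and not in PC3, and that of NKX2-2 in neither.
NEUROD4, SOX2 and PAX6 had 2 NCI-H660-only regions each and NEUROD1 had 1, at a score of 446. POU3F2, SCRT1 and RFX6 had 2 PC3-only regions each and no NCI-H660-only region.

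Neuroendocrine secretory and surface markers had NCI-H660-only regions more often, and PC3-only regions less often, than all genes did, though single markers went either way. Of 24, 12 had an NCI-H660-only and 8 a PC3-only region (12 and 6 with equal lists), beside 31.3% and 49.9% of all genes. At least 3 NCI-H660-only and no PC3-only regions were found at 2 of them, beside 0.972% of all genes, and the reverse at 1, beside 7.12%. Somatostatin (SST) and CEACAM5, a surface antigen, had 3 NCI-H660-only regions each and no PC3-only region, and DDC, which codes for the decarboxylase that makes dopamine and serotonin, had 3 and 1. The region of SST with the highest score was chr3:187359127-187359651 (540). The promoter of SST was accessible in PC3 and not in NCI-H660, and that of CEACAM5 in NCI-H660 and not in PC3. In PC3, SYT1, the calcium sensor of synaptic vesicles, had 9 PC3-only and 2 NCI-H660-only regions, and SCG5, a secretory granule chaperone, had 6 and 0. The score of the strongest PC3-only region was 747 at SYT1 and 737 at SCG5. SYT1 is 588 kb long and SCG5 55.4 kb. CHGA and SYP had no region in either vehicle list.

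Basal, stem cell and mesenchymal genes had PC3-only regions more often than all genes did, and NCI-H660-only regions more often as well. Of all genes, 49.9% had a PC3-only and 31.3% an NCI-H660-only region. Median gene lengths were 46.1 kb in the basal and stem cell list and 75.6 kb in the mesenchymal list, against 27.2 kb for all genes. The part of gene length in these shares was not tested. Of 18 basal and stem cell genes, 14 had a PC3-only and 7 an NCI-H660-only region (11 and 7 with equal lists). Of these genes, 4 had at least 3 PC3-only and no NCI-H660-only regions, beside 7.12% of all genes. The same held for 3 of 21 mesenchymal genes, 3 of 19 luminal and androgen receptor genes and 3 of 16 endoderm factors. TP63, the basal cell transcription factor, and EGFR had 7 PC3-only regions each, beside 2 and 1 NCI-H660-only regions, and MET, the receptor of hepatocyte growth factor, had 5 and 3. The strongest at TP63, a gene of 266 kb, was the intronic region chr3:189403688-189404132, with a score of 1131. The TP63 promoter was accessible in NCI-H660 and not in PC3. EGFR counts were 8, 7, 4, 20 and 17 in the PC3 lists and 2 in both NCI-H660 lists. SOX9 had 4 PC3-only regions, of which the 2 upstream ones scored 1285 and 1210, and no NCI-H660-only region. PROM1, a stem cell surface marker, went the other way with 2 and 4, and ITGA6 with 1 and 3.
Of 21 mesenchymal genes, 19 had a PC3-only and 9 an NCI-H660-only region. With lists of equal length the numbers were 12 and 9, beside 6375 and 6500 of all genes. TGFBR2, the type II receptor of TGF-β, had 8 PC3-only regions, including 1 in its promoter (chr3:30647558-30648038, score 544), and its counts were 8, 4, 4, 13 and 13 in PC3 and 0 in both NCI-H660 lists. The matricellular genes THBS1 and CCN1 had 5 PC3-only and no NCI-H660-only regions each. ZEB1, a repressor of epithelial genes, had 2 PC3-only and 5 NCI-H660-only regions.

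For the YAP and TEAD pathway, which relays cell contact to transcription, 7 of 11 genes had a PC3-only and 5 an NCI-H660-only region, and both numbers were the same with lists of equal length. TEAD1 had 8 PC3-only and 4 NCI-H660-only regions, YAP1 7 and 2, and WWTR1, which codes for TAZ, 7 and 1. The lengths of TEAD1, YAP1 and WWTR1 are 270, 123 and 219 kb. In the PC3 list the PC3-only regions of YAP1 scored from 47 to 210. In the NCI-H660 list the strongest NCI-H660-only region there (chr11:102112907-102113214) scored 1162. As depth is unknown, these scores give no order between the lines. Of 12 genes in the AP-1 subunit list, 9 had a PC3-only and 4 an NCI-H660-only region, and with equal lists 7 and 4. The list also held BATF, ATF and MAF genes, which are outside the JUN and FOS families. MAFK, a MAF gene, led the list with 5 and 0, while JUN had 1 and 2 and FOSL1 had 1 and 0.
Of 19 luminal and androgen receptor genes, 11 and 6 had such regions, and with equal lists 7 and 7. GRHL2, an epithelial transcription factor, had 6 PC3-only and 5 NCI-H660-only regions, HOXB13, a prostate lineage factor, 4 and 0, and FOXA1 3 and 0 beside 2 shared ones. KLK2 and KLK3 had no region in either vehicle list. Of 16 endoderm factors, 8 and 7 had such regions, and with equal lists 5 and 7, with HNF4G at 5 and 1, FOXA2 and SOX9 at 4 and 0, and GATA6 at 0 and 2. SOX9 and FOXA1, among others, are each counted under 2 lists.
Axon guidance and synapse genes had regions of both lines, 21 and 18 of 23, and with equal lists 16 and 18. They are long, with a median of 898 kb. CNTNAP2 (25 PC3-only and 6 NCI-H660-only), ROBO2 (22 and 4) and ROBO1 (17 and 7) were high in PC3, and NRXN3 (11 and 14), DCC, a netrin receptor (9 and 12), and PTPRD (16 and 11) had the most NCI-H660-only regions. Of 10 genes that the study itself tested or displayed, 9 and 5 had such regions (7 and 5 with equal lists), with TP63 (7 and 2), CEP55 (5 and 0) and CCBE1 (4 and 1) first. That list was chosen by the study on these samples and is not independent of them.

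**Figure D5:**
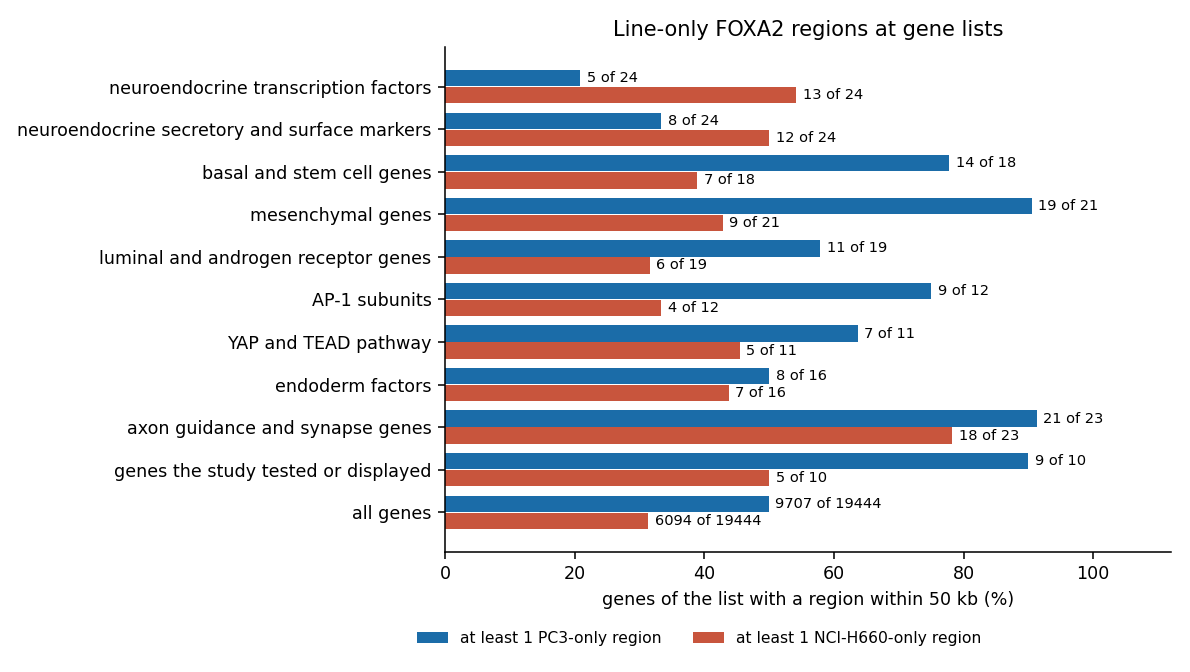
Percentage of genes in each list with at least 1 PC3-only or NCI-H660-only FOXA2 region within 50 kb of the gene body, with the counts beside the bars. The row of all genes gives the background, 9707 and 6094 of 19444. The neuroendocrine transcription factors have the shorter bar for PC3, 5 of 24 against 13 of 24.

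Line-only regions were also spread unequally over chromosomes. Chromosome 21 held 1.55% of PC3-only and 0.597% of NCI-H660-only regions, a ratio of 2.60, where the ratio for accessible regions was 1.56. For chromosome 5 the ratio was 1.60 (accessible regions 1.11). Chromosome 22 was at 0.444 (accessible 0.786), chromosome 1 at 0.585 (0.782) and chromosome 16 at 0.627 (0.919).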

How the data were processed

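The authors made the ChIP-seq and ATAC-seq lists. The deposited lists hold region coordinates on hg19 and a whole-number score per region, whose smallest value of 13 fits 10 times the −log10 of a q-value of about 0.05; the file headers do not state it. Per the labels the authors used FastQC 0.11.9, BWA 0.7.17-r1188, SAMtools 1.9 and MACS2 2.1.4. The MACS2 settings, the control and any pooling are not given in the sources used here, and the study's methods name another FOXA2 antibody supplier than the labels. Lists without scores (2 LNCaP lists, coordinates only) were used for overlap alone.

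Regions were classed by an overlap of 1 bp in Python 3.11.15 with numpy and pandas. Genes (19444 protein-coding genes with a symbol; 692 without were left out), 78173 starts and exons came from GENCODE release 44 mapped to GRCh37. Promoters were 1 kb around a start, clusters joined gaps up to 12.5 kb, and motifs were searched in 201 bp. Functions were tested on simulated data. The members and gene lists were chosen with earlier results of these data known. Genes named are, per line, the 10 with most line-only regions by gene body, nearest gene and gene start, the 10 largest clusters, the 5 highest-scoring line-only and shared regions outside recurrent places, and the list members with most regions (3 per list and line, or all with at least 3 for factors and markers); a few other list members were named after their values were seen. Depth is unknown. A gene and a sequence are not reported here.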

Additional observations from a re-analysis of the deposited data

Results flagged for a closer look

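The FOXA2 list of LNCaP_FOXA2OE cells, a luminal prostate cancer line made to overexpress FOXA2, was used in no comparison of PC3 with NCI-H660. It is given here because its regions overlapped each of the 3 classes. The bar for this is low, 0.12% or 3 counts of 2500, and says nothing of the overlap to be had from accessible chromatin, which was not tested. Of its 2500 regions, 320 overlapped a PC3-only region (12.8%, 11.5 to 14.2%), 170 an NCI-H660-only region (6.80%, 5.88 to 7.85%) and 821 a shared region (32.8%, 31.0 to 34.7%). Without recurrent places, 2132 regions were left, of which 299, 160 and 463 overlapped these classes. The PC3-only class is the larger one, and whether the shares differ beyond class size was not tested.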

How the results depend on the processing

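With 1 list per line nothing here has a replicate, depth is unknown and scores grow with depth, so no order of binding strength between lines can be read from them. No paired analysis was possible because each line has 1 FOXA2 vehicle list and no result comes from a test. Of 150 values under 20 alternative settings, 75 moved beyond their counting interval (for counts of genes, beyond 1.5 times). Values are given for PC3 first and NCI-H660 second, and causes were not tested.

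An overlap of 50% of both regions gave shared shares of 10.1% and 20.5% and a median NCI-H660 shared score of 185, and a distance of 1 kb gave 12.1% and 24.2% and a median PC3 shared score of 235.5. Without recurrent places the shared shares were 9.64% and 19.8% and the median shared scores 231 and 161. With the other PC3 ChIPs in place of the PC3 vehicle list the shared shares were 4.84% and 31.5%, and 5.42% and 28.4%. With scores of at least 50, clusters held 9.27% and 2.41%, the forkhead core was in 35.8% and 47.8%, TGACTCA in 28.9% of PC3-only regions, and promoters held 3.85% of NCI-H660-only regions. With scores of at least 100, the shared share of PC3 was 10.5%, the PC3-only median distance 54404 bp, clusters 6.42% and 1.31%, the forkhead core 38.3% and 51.6%, CAGCTG 7.84% and 16.9%, TGACTCA 29.6% in PC3-only regions, NCI-H660-only promoters 3.73%, and 117 genes were called for NCI-H660. With lists of equal length the shared shares were 15.2% and 15.3%, clusters 3.91% and 3.21%, and genes called 409 and 364, while PC3-only regions had a median distance of 53059 bp, the forkhead core in 40.3%, TGACTCA in 30.6% and CAGCTG in 8.12%.

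Promoters of 2.5 kb held 6.61% and 7.16%, and 1 start a gene gave median distances of 91182 and 90605 bp. Cluster gaps of 5 kb gave 1.56% and 0.380%, and of 25 kb 23.9% and 8.47%. Genes called numbered 688 and 118 within 10 kb, 2163 and 335 within 100 kb, and 832 and 82 around the start. In windows of 250 bp on either side the forkhead core was in 44.1% and 54.1%, TGACTCA in 36.7% and 9.98%, and CAGCTG in 17.1% and 32.3%. Recovery in the other line's lists was 1.71% and 19.1% at 50% overlap, and 2.87% and 26.6% within 1 kb. In an alternative chosen after seeing the data, NCI-H660-only regions in no PC3 FOXA2 list had promoters at 3.25%, a median distance of 59384 bp, clusters at 2.21%, the forkhead core at 41.7% and TGACTCA at 4.13%. In the same alternative, PC3-only regions in no NCI-H660 FOXA2 list had promoters at 3.40%.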
